A study of Mus musculus with 4 samples.

Results

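A block of PTBP1 clusters on mouse chromosome 7 lies between the protein-coding gene Josd2 and the lncRNA gene 5430431A17Rik, outside every gene span of the RefSeq annotation used here. Its members are the clusters on the + strand that start and end between 44473836 and 44483121 (mm10, 9286 nt, coordinates counted from 1). There were 208 such clusters among 376266 in replicate 1 and 202 among 388894 in replicate 2. PTBP1 was immunoprecipitated from whole heart of wild-type C57BL/6 mice by enhanced crosslinking and immunoprecipitation (eCLIP), in which ultraviolet light fixes RNA to its bound proteins, RNase shortens it and an antibody pulls down the protein of interest. Frozen heart powder was crosslinked, and the 2 immunoprecipitates (IP) were each compared with a size-matched input, a portion of the same RNase-treated lysate that never met the antibody and was cut from the same membrane range. Per the labels all material was wild-type and untreated by any agent named there. The labels do not say whether the 2 lysates came from different mice, and the difference between them may be technical. All log2 folds and −log10 p-values given here compare IP with input and were computed by the authors, whose deposited tables hold them cluster by cluster.

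PTBP1, polypyrimidine tract binding protein 1, binds pyrimidine-rich RNA through several RNA recognition motifs. It is best known as a repressor of alternative exons, and it also takes part in polyadenylation, RNA stability and translation. Because it contacts RNA as it is made in the nucleus, its crosslinked sites fall in introns and in noncoding transcripts as well as in messenger RNA. A transcript that offers many sites in a row can hold many PTBP1 molecules, and noncoding RNAs of that kind are known in human cells.

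The block was chosen by measured values of these same tables, the number and the folds of its clusters in both replicates. Its counts and folds are therefore given as a description, with no test. With 2 lysates, no permutation of samples could reach a p of 0.05 either. As a check of the tissue label, the cardiomyocyte genes Ttn, Myh6, Myl2 and Tnni3 held 283, 51, 14 and 8 clusters in replicate 1 and 303, 65, 16 and 8 in replicate 2. Their median log2 folds were −3.60, 0.52, −4.21 and −4.19 in replicate 1 and −3.12, 0.41, −3.62 and −3.42 in replicate 2. Log2 fold and −log10 p both reached 3 in 4, 8, 0 and 0 of these clusters in replicate 1 and in 4, 4, 0 and 0 in replicate 2. The fibroblast genes Vim, Bgn and Col1a1 held 5, 20 and 5 clusters in replicate 1 and 8, 22 and 4 in replicate 2. Their median log2 folds were 4.74, 5.24 and 2.47 in replicate 1 and 4.14, 4.13 and 2.12 in replicate 2. Both thresholds were reached by 4, 20 and 2 of these clusters and by 5, 20 and 0, beside 6.31% and 4.71% of all clusters. A count of clusters of any fold is not a count of PTBP1 sites.

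The nucleotide sequence under the clusters was not used here. The nearest sequence in the RefSeq promoter table (GRCm38.p6, the same assembly as mm10) is the start of 5430431A17Rik on the + strand, 250 bases before and 50 bases after its first base. It is shown because it is the flank that the block faces at its downstream end, 1145 nt beyond it. Capitals mark the exact copies of an 18-base word, the most frequent word of that length in the window, a length chosen after the sequence was seen.
5430431A17Rik, chr7:44484267-44484566, + strand: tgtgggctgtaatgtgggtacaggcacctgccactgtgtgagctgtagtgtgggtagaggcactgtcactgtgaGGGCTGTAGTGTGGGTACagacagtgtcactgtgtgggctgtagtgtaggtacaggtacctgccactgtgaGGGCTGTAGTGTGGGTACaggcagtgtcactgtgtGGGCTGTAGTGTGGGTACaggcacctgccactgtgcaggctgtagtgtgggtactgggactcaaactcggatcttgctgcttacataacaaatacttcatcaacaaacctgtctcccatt

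The word occurred 3 times, and a shift of the window by 71 bases matched 62.0% of its letters to themselves. Josd2 is the gene at the other flank, but the block faces its end, and the window at its start lies 5806 nt before the block. That window had no such repeat: its best shift matched 32.9%. No value over other windows stands beside these 2 shift matches. Pyrimidines made up 47.0% of the 5430431A17Rik window and 53.3% of the Josd2 window, against a median of 49.7% over 32851 windows of the same length. The pyrimidine motif TCTT occurred 1 time on the sense strand of the 5430431A17Rik window and 2 times on that of the Josd2 window. It is found on the sense strand in 69.9% of all windows, with a median of 1 match, and on either strand in 89.1%. The motif TTCT, whose matches can overlap those of the first, was missing from both strands at 5430431A17Rik and was found 1 time in sense and 3 times in antisense at Josd2, beside 91.6% of all windows. Neither CTCTCT (27.6% of all windows) nor the longer tract motif TTTTCT (27.9%) occurred on either strand of these windows. No cluster of replicate 1 or replicate 2 covered either window.

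The block was densely set with strong PTBP1 clusters in both lysates. All 208 clusters of replicate 1 and all 202 of replicate 2 were enriched, that is, log2 fold and −log10 p both reached 3, where 6.31% and 4.71% of all clusters reached these thresholds. An enriched cluster of the other replicate overlapped 208 of the 208 and 199 of the 202, where 3.98% and 3.72% of all clusters met that condition. The rule rests on these values, so nothing is read from the shares. The median log2 fold was 5.28 in replicate 1 (range 3.48 to 6.57, SD 0.41 over clusters) and 4.57 in replicate 2 (3.53 to 5.69, SD 0.34), which is 38.9-fold and 23.8-fold on the linear scale. For all clusters of the tables the medians were 0.62 and 0.62. A log2 fold of at least 5 was reached by 156 block clusters in replicate 1 and by 17 in replicate 2, beside 0.845% and 0.293% of all clusters.

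The block was not the place of the very highest single folds. In replicate 1, 135 clusters elsewhere had a higher log2 fold than its strongest member, and in replicate 2 there were 226. Its −log10 p-values, by contrast, were at the ceiling of the tables, 400, for all 208 members of replicate 1 and 199 of replicate 2. A value of 400 is held by 0.108% and 0.0903% of all clusters, in counts 407 and 351, so that the block alone made up 51.1% and 56.7% of them by number. By length it was the smaller part. All members together covered 5188 and 5185 nt, and the clusters at 400 elsewhere covered 13949 and 8969 nt. The highest value short of the ceiling was 183 in replicate 1 and 91.0 in replicate 2, and values at the ceiling have no order among themselves. The 3 exceptions of replicate 2 had −log10 p of 87.3, 85.2 and 87.8 and were 7, 13 and 10 nt long.

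**Figure D1:**
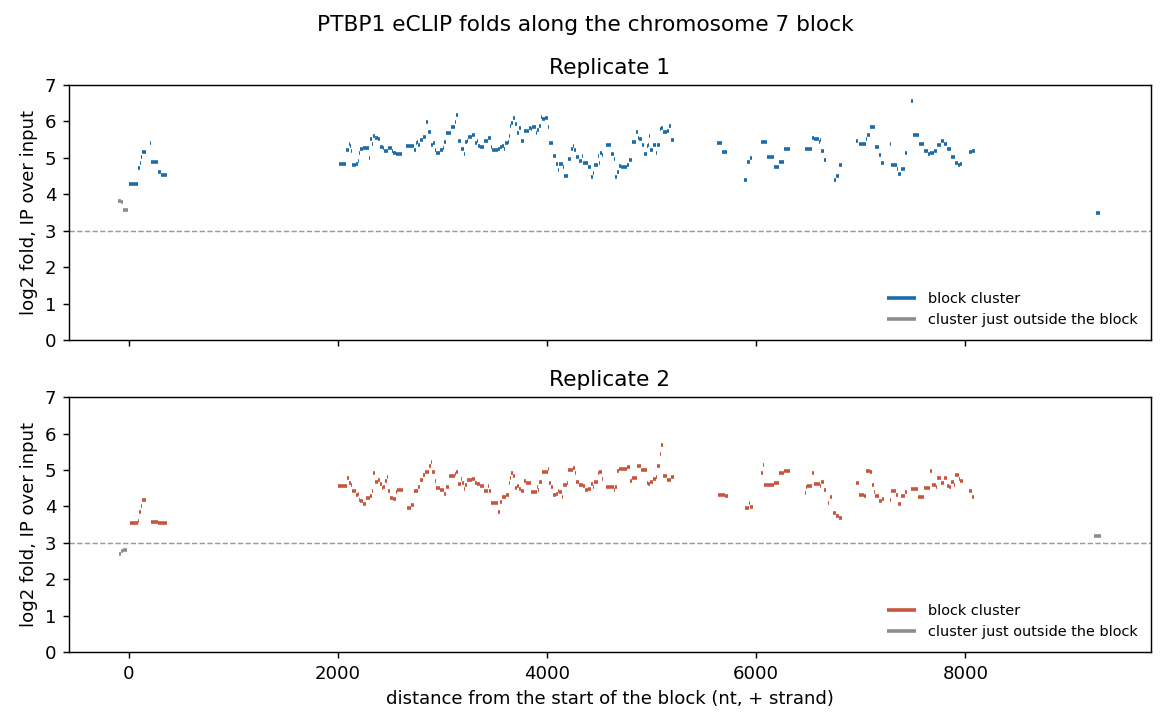
Log2 fold of IP over input for each cluster (horizontal bars, drawn to length) against the distance in nt from the start of the block, in replicate 1 (top) and replicate 2 (bottom). Grey bars are clusters within 1000 nt outside the block and the dashed line marks a log2 fold of 3; block clusters lie between 3.48 and 6.57 (top) and between 3.53 and 5.69 (bottom), with the same wide gap after the first stretch in both.

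The clusters fell into stretches at the same places in both lysates. The first stretch ran from 44473836 to 44474200 in replicate 1, with 9 clusters and a median log2 fold of 4.85. In replicate 2 it ran from 44473848 to 44474199, with 7 clusters and a median of 3.60. A gap of 1646 nt followed in replicate 1 and of 1642 nt in replicate 2, with no cluster in it.

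The main stretch held nearly all members. In replicate 1 it reached from 44475847 to 44481925, and its 198 clusters covered 4817 of 6079 nt (79.2%). The limits in replicate 2 were 44475842 and 44481918, with 195 clusters on 4884 of 6077 nt (80.4%). Its median log2 fold was 5.31 and 4.59. Beyond it, 1155 nt without a cluster preceded a last, weaker cluster of replicate 1, from 44483081 to 44483121 with a log2 fold of 3.48.

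Clusters continued a short way past the limits of the block. Just inside, the first cluster had log2 folds of 4.29 and 3.53 in replicates 1 and 2. Just outside, 3 more + strand clusters lay between 44473738 and 44473826 in replicate 1, with log2 folds of 3.83, 3.79 and 3.58. Their counterparts in replicate 2 had 2.68, 2.78 and 2.81. All of these end before the first position of the block and are no members by position. At the downstream end the replicate 2 cluster from 44483062 to 44483134 had a log2 fold of 3.18, but it ends 13 nt past the limit and is no member.

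Within the main stretch the folds rose and fell in steps from cluster to cluster, and the replicates did not peak in the same place. Over successive windows of 1000 nt, replicate 1 had its highest median log2 fold, 5.58, from 3000 to 4000 nt after the start (49 clusters, 5.11 to 6.17). Replicate 2 had 4.59 there (41 clusters, 3.84 to 4.95). The highest median of replicate 2 was 4.75, from 5000 to 6000 nt (13 clusters, 3.95 to 5.69), where replicate 1 had 5.38 (14 clusters, 4.40 to 5.89). From 4000 to 5000 nt the replicates came closest, with medians of 5.00 and 4.66. The window from 3000 to 4000 nt was covered to its last nucleotide in both replicates, 1000 of 1000, while that from 5000 to 6000 nt was covered over 389 and 385 nt. From 2000 to 3000 nt the medians were 5.29 and 4.51, from 6000 to 7000 nt 5.25 and 4.57, and from 7000 to 8000 nt 5.19 and 4.52. Between 2000 and 8000 nt the window medians spanned 5.00 to 5.58 in replicate 1 and 4.51 to 4.75 in replicate 2, less than the 0.75 that separated the lysates.

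The leading 6 pairs were ranked by the lower of both folds, and 5 of them began between 4849 and 5088 nt from the start of the block. The cluster from 44478924 to 44478942 led with 5.83 in replicate 1, and its counterpart, ending 1 nt earlier, had 5.69, the highest log2 fold of replicate 2. Directly upstream, the cluster from 44478913 to 44478923 was drawn identically in both tables and had 5.80 and 5.44. Next to it, the cluster from 44478888 to 44478912, again identical in position, had 5.36 and 5.12. Farther upstream, clusters ending at 44478707 had 5.71 and 5.11, and clusters starting at 44478708 had 5.54 and 5.10. The cluster starting at 44476732 had 5.36 and 5.23 and completed the leading 6 pairs. The sixth place rests on how ties in overlap were settled. The replicate 1 cluster from 44476695 to 44476724, at 5.70, shares 15 nt with each of 2 replicate 2 clusters and was set beside the first by position, at 4.93. Set beside the other, at 5.11, it would replace the pair with 5.54 and 5.10, and 4 of the leading 6 pairs would lie in that stretch.

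The highest single fold of the block was seen in 1 lysate. At 44481313 to 44481332 replicate 1 reached a log2 fold of 6.57, whereas the overlapping cluster of replicate 2, longer and ending at 44481385, had 4.49. That difference of 2.08 was the largest of any pair in the block. The next highest folds of replicate 1 were 6.17 from 44476971 to 44476982, where replicate 2 had 4.93 at the same coordinates, and 6.12 from 44477779 to 44477787, where it had 4.66. In the opposite direction the largest difference was 0.36, at 44478501 to 44478524, with 4.62 in replicate 1 and 4.97 in replicate 2.

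The weakest pairs lay at the ends. The last cluster had 3.48 and 3.18, the first had 4.29 and 3.53, and a pair of replicate 1 clusters that close the first stretch had 4.62 and 4.53 against 3.56 in the single replicate 2 cluster that spans both. Just 3 clusters, all of replicate 2, met no cluster of replicate 1: 44478386 to 44478392 with a log2 fold of 4.93, 44480523 to 44480535 with 4.09 and 44480545 to 44480558 with 4.26. Each lay inside a gap of replicate 1.

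Replicate 1 was higher than replicate 2 across almost the whole block. Of the 208 replicate 1 clusters, each set beside the replicate 2 cluster sharing most nucleotides with it, 195 (93.8%) had the higher log2 fold, with a median difference of 0.75 (SD 0.41 over pairs). Replicate 1 was likewise higher in 61 of 62 windows of 100 nt covered in both. Over all 210643 overlapping pairs of the tables the median difference was 0.13, and over the 13960 other pairs enriched in both replicates it was 0.29. The difference in the block was near that of the 149 other pairs with a −log10 p of 400 in both replicates, 0.80, among which replicate 1 was higher in 144. What sets the difference, such as library scaling or input depth, was not tested. Across the block's pairs the folds had a Pearson correlation of 0.44 and a Spearman correlation of 0.35. This is a description across touching clusters of the same 2 lysates over a narrow range of folds. Of the 149 other pairs, 116 also had a log2 fold of at least 3 in both replicates. Over these 116 the Pearson correlation was 0.79, the Spearman correlation 0.74 and the median difference 0.87. Over the 13960 other pairs enriched in both replicates the correlations were lower than in the block, 0.33 (Pearson) and 0.30 (Spearman). Why the correlations differed between these sets was not tested.

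**Figure D2:**
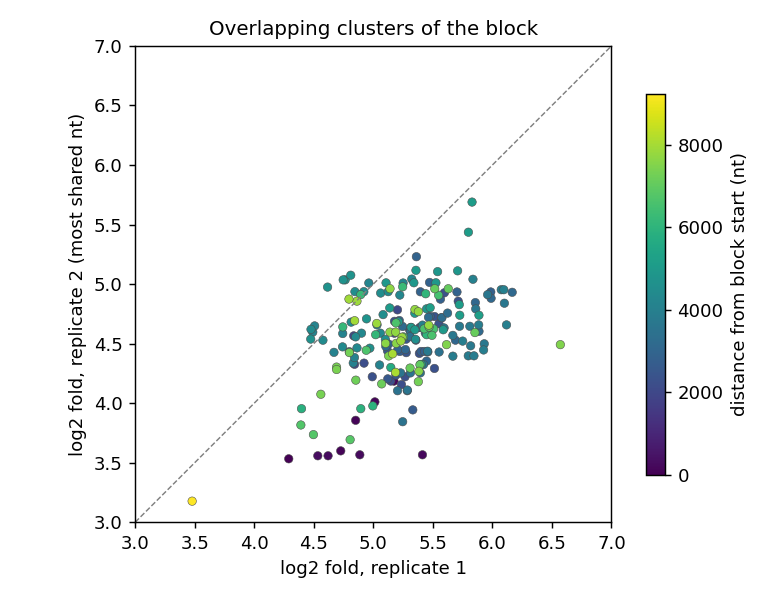
Log2 fold of each replicate 1 cluster of the block (x axis) against that of the replicate 2 cluster sharing most nucleotides with it (y axis), 208 pairs, coloured by distance in nt from the start of the block, with the dashed line marking equal folds. Of the 208 points, 195 lie below the line, and the lone point at 6.57 and 4.49 is the pair with the largest difference.

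Although the sizes of the folds differed, the replicates shared most of the nucleotides covered. The members covered 5188 nt in replicate 1 and 5185 nt in replicate 2, and 5078 nt were covered in both (97.9% of each). Clusters mostly touched their neighbours: 192 of 207 junctions in replicate 1 and 182 of 201 in replicate 2 had no base between them, which left 15 and 19 gaps. Of the 9 gaps of at least 50 nt in replicate 2, all 9 overlapped a gap of replicate 1, and of the 10 in replicate 1, 9 overlapped one of replicate 2. The exception was the gap before the last cluster, whose replicate 2 counterpart is no member. The second widest shared gap, which began at 44479049 in replicate 1 and at 44479054 in replicate 2, measured 411 and 414 nt.

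Cluster borders, both those between touching clusters and the outer edges at gaps, recurred as well. Of 224 cluster borders in replicate 1, 71 (31.7%) had a border of replicate 2 at the same position and 131 (58.5%) had one within 1 nt. Seen from the 222 borders of replicate 2 the numbers were also 71 (32.0%) and 131 (59.0%). Over all reproducible clusters elsewhere, 12.2% of borders had one within 1 nt in both replicates, and over the other enriched clusters with a −log10 p of 400 it was 40.6% and 47.6%. Borders were denser in the block, with 1 border for 23.2 and 23.4 covered nt in replicates 1 and 2. For the reproducible clusters elsewhere it was 79.1 and 80.4 nt, and for the other enriched clusters with a −log10 p of 400 it was 52.8 and 49.0 nt. How much of the sharing follows from that density was not tested. The tables held 196 clusters with identical coordinates in both replicates, and 22 of these were in the block. None of the 22 had an identical log2 fold.

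Short clusters made up the block. The median length was 22 nt in replicate 1 (5 to 90 nt) and 23 nt in replicate 2 (6 to 96 nt), against 69 and 66 nt over all clusters and 131 and 132 nt over other enriched clusters. At most 25 nt long were 124 of 208 (59.6%) and 124 of 202 (61.4%), where 9.91% and 10.9% of all clusters were that short. Among enriched clusters elsewhere the shares were 1.35% and 1.22%. Enriched clusters elsewhere with a −log10 p of 400 were also short, with medians of 33 nt (162 clusters) and 46 nt (109 clusters). Within the block, length and log2 fold had a Pearson correlation of −0.18 in both replicates, across clusters. Members of at most 25 nt had a median log2 fold of 5.33 and 4.59, and longer ones 5.21 and 4.56. The longest were the first cluster of replicate 1, of 90 nt, and in replicate 2 a cluster from 44479910 to 44480005, of 96 nt, with a log2 fold of 4.57.

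**Figure D3:**
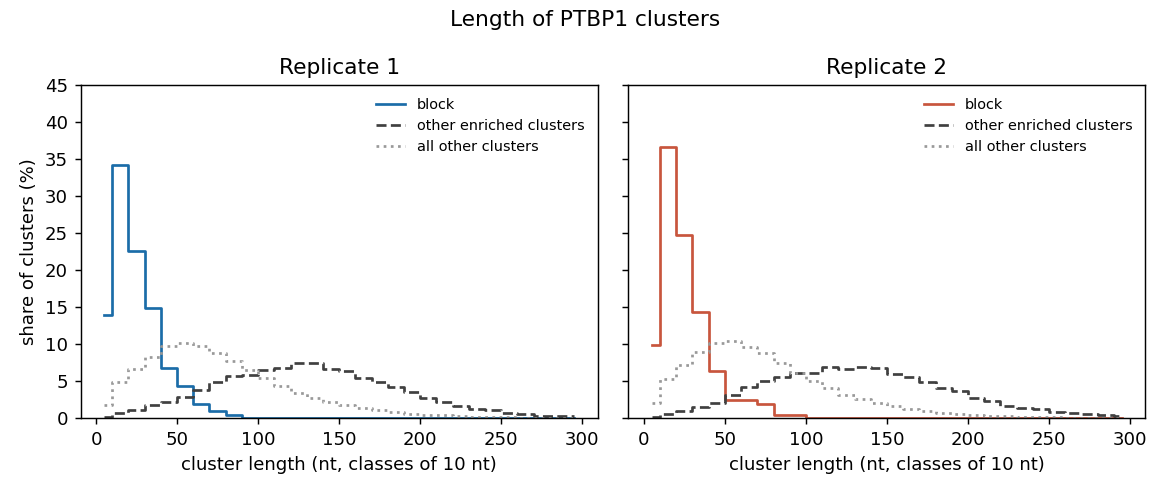
Share of clusters (%, y axis) in length classes of 10 nt (x axis, up to 300 nt) for the block (solid), other enriched clusters (dashed) and all other clusters (dotted), replicate 1 left and replicate 2 right. Block clusters peak between 10 and 20 nt, with 34.1% and 36.6% of members, and have medians of 22 and 23 nt, while other enriched clusters have medians of 131 and 132 nt.

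The share of the block was smaller by length than by number. It held 0.876% of the enriched clusters of replicate 1 and 1.10% of those of replicate 2, but 0.164% and 0.210% of the nucleotides that enriched clusters covered. When touching clusters were counted once, a count added after seeing the data, 208 clusters became 16 and 202 became 20.

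The genes next to the block held few clusters and no enriched one, where 6.31% and 4.71% of all clusters were enriched. Josd2, which encodes a deubiquitinase of the Josephin family and lies on the + strand from 44467980 to 44471658, ends 2177 nt before the block. Its 4 clusters in replicate 1 had log2 folds from −2.28 to 1.36 with a median of −0.25, and its 2 clusters in replicate 2 had −0.48 and 0.43. The lncRNA gene 5430431A17Rik, on the + strand from 44484517 to 44485413, begins 1395 nt after the block and held 0 clusters in both replicates. The block is on the same strand as the genes on both sides, and its lowest log2 folds, 3.48 and 3.53, lay above the highest of Josd2, 1.36 and 0.43.

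The 16 protein-coding and lncRNA genes within 100 kb, Josd2 and 5430431A17Rik among them, held no enriched cluster in either replicate. Of all clusters 6.31% and 4.71% were enriched, and with so few clusters in these genes nothing is read from the absence. Clusters of any fold lay in 10 of the genes in replicate 1 and in 9 in replicate 2. The highest log2 folds in this set were 2.04 and 2.12, in 1700008O03Rik, a gene at the upstream edge whose span overlaps that of the synaptotagmin gene Syt3. Syt3 had medians of 0.84 (3 clusters) and 0.94 (4). Lrrc4b, the gene of a leucine-rich repeat adhesion protein of synapses, had 1.21 (3 clusters) and 0.03 (4). Aspdh, upstream of Josd2, had 2 clusters in replicate 1, at −0.38 and 0.84, and 0 in replicate 2.

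Downstream, Emc10, which encodes a subunit of the endoplasmic reticulum membrane complex, had medians of −0.04 (7 clusters) and −0.15 (5). Nr1h2, the gene of the oxysterol receptor LXR beta, had the lowest folds, from −2.96 to −1.23 (5 clusters) and from −2.55 to −1.12 (4). Mybpc2, which encodes a myosin-binding protein of fast skeletal muscle, had 1 cluster at 1.62 in replicate 1 and 4 with a median of −0.01 in replicate 2. Pold1, the gene of the catalytic subunit of DNA polymerase delta, had 1 cluster at −1.38 and 2 with a median of 0.41. The transcription factor gene Spib had 0 and 1 (−0.38), and the peptidase gene Napsa had 1 (−0.38) and 0. Fam71e1, Gm39001, Gm39002 and Gm39003 held 0 in both, as did the microRNA genes Mir7052, inside Josd2, and Mir7053, inside Pold1.

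In all, 32 clusters of each replicate lay within 100 kb outside the block, with a median log2 fold of −0.10 and −0.12. The 3 enriched ones of replicate 1 and the 1 of replicate 2 were those described just outside its limits. On the − strand, 0 clusters overlapped the block in either replicate, while 14 and 16 of the 32 around it were on that strand.

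**Figure D4:**
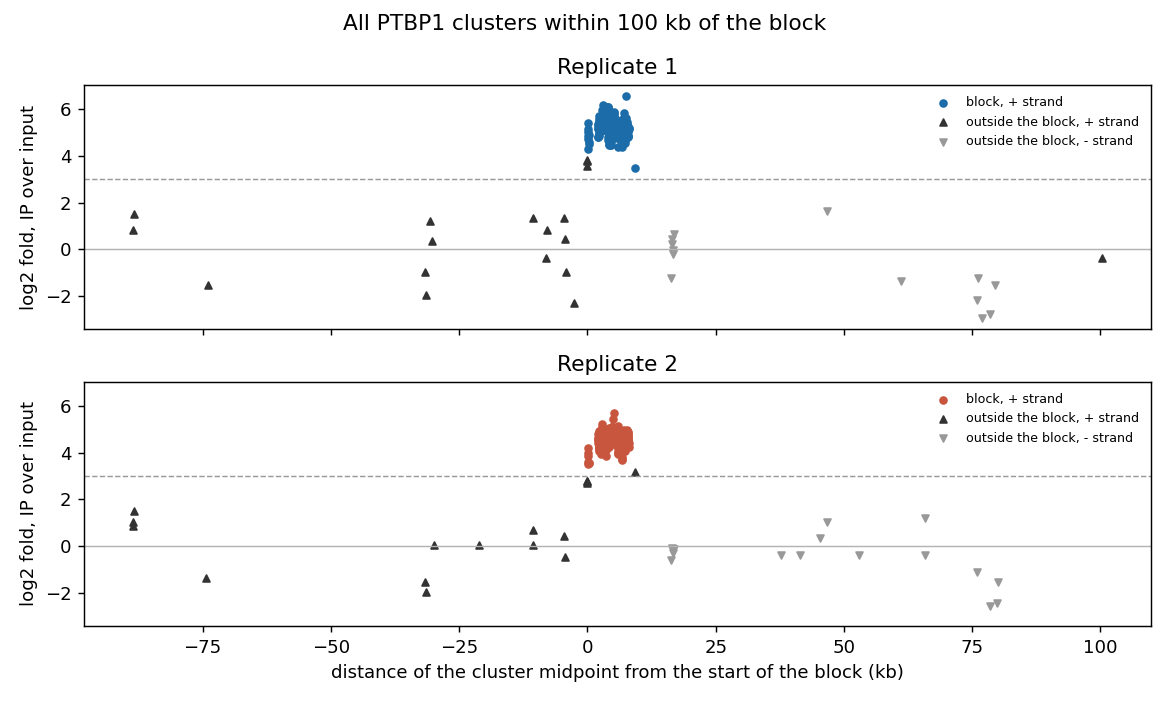
Log2 fold of IP over input for every cluster within 100 kb of the block against the distance of its midpoint from the block's start (kb), replicate 1 top and replicate 2 bottom, with block clusters in colour, other + strand clusters as upward and − strand clusters as downward triangles. Outside the block and its immediate edges no cluster reaches the dashed line at a log2 fold of 3.

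Among all runs of enriched clusters, joined on a strand over gaps of up to 1000 nt, the main stretch of the block held the most clusters in both replicates. With 198 of them in replicate 1 it stood ahead of a run of 49 in Itpkb, an inositol phosphate kinase gene, and of 47 in Xist, the noncoding RNA of X inactivation. In replicate 2 it had 195, ahead of 59 in Itpkb and 43 in Xist. Runs in the transcription factor genes Ebf1 (32 and 38 clusters) and Tshz2 (26 and 27) followed in both. By covered length the order was closer: the block's 4817 nt led the 4474 nt of Itpkb in replicate 1, and in replicate 2 its 4884 nt were second to the 6762 nt of Itpkb. Being first by number is part of how the block was found, and the order is given as a description.

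The leading runs differed in cluster length and in how many clusters had a −log10 p of 400. The Xist run had median lengths of 15 and 21 nt, median log2 folds of 5.44 and 4.27, and 47 of 47 and 36 of 43 clusters at 400. The run in Bgn, the gene of the proteoglycan biglycan, had 10 and 13.5 nt, 5.24 and 4.13, and 19 of 20 and 17 of 20 clusters at 400. The run in Ryr2, the gene of a ryanodine receptor, had 22 and 37 nt, 4.93 and 3.85, and 3 of 20 and 1 of 17 clusters at 400. The Itpkb run had longer clusters, of 86 and 116 nt, lower log2 folds of 3.77 and 3.62, and 3 and 2 clusters at 400. Ebf1 (77.5 and 71.5 nt, 3.95 and 4.27) and Tshz2 (63 and 83 nt, 4.78 and 4.43) had none there.

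Other runs among the leading ones of replicate 1 were in Ryr2 with 20 clusters, the serine peptidase gene Htra3 with 19, the kinase gene Mark2 with 17 and the transcription factor gene Zbtb16 with 16, before 10 runs tied at 14. In replicate 2 they were in Galnt18 with 23, the tenascin gene Tnxb with 22, Zbtb16 with 21, and Ryr2, Atxn7 and Ephb4 with 17 each. All 19 and 11 of these comparison runs lay in the span of a protein-coding or lncRNA gene.

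**Figure D5:**
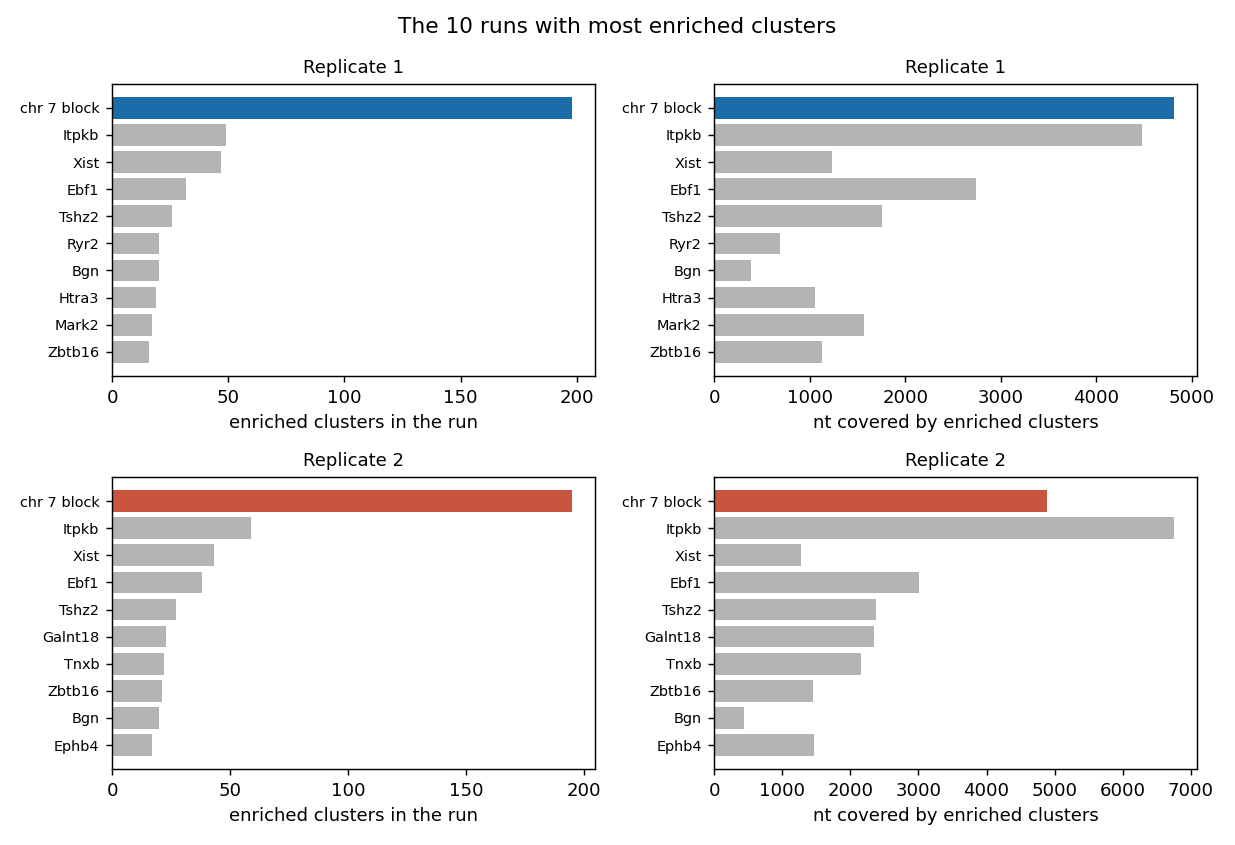
The 10 runs with most enriched clusters in replicate 1 (top) and replicate 2 (bottom), with the number of clusters (left) and the nucleotides they cover (right), the chromosome 7 block in colour and other runs in grey, named by the gene that holds them. The block leads by number in both replicates, with 198 and 195 clusters, and in replicate 2 Itpkb covers more nucleotides, 6762 against 4884.

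Outside genes, other runs were far smaller. Of 520 enriched clusters outside protein-coding and lncRNA spans on assembled nuclear chromosomes in replicate 1, 40.0% were members, and of 423 in replicate 2 it was 47.8%. The other 6448 and 6520 clusters outside these spans were enriched in 312 (4.84%) and 221 (3.39%) cases. By length the members were the smaller part, with 5188 and 5185 nt against 43231 and 31653 nt covered by those 312 and 221. Away from this locus, the enriched runs outside all annotated genes with most clusters held 7 in replicate 1, one on chromosome 13 from 108484209 to 108485103 and one on chromosome 1 from 194984347 to 194985834, with median log2 folds of 3.37 and 3.26. In replicate 2 they held 4, on chromosome 1 from 195011737 to 195013026 and on chromosome 4 from 66897880 to 66898497, with 4.06 and 3.88. The median length in these 4 runs was 92 to 120 nt.

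How many reads stand behind each cluster is unknown, and fewer input reads and more IP reads give the same fold. Whether reads that map to several places were kept is not given in the sources used here.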

How the data were processed

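Per the labels, 2 PTBP1 immunoprecipitates and 2 size-matched inputs of whole heart were sequenced, with mm10 and hg38 as builds and STAR 2.6.0c, cutadapt 2.7 and UMI-tools 0.5.1 as tools, per the submitters' processing notes. Not given in the sources used here are the cluster caller, its test and its scaling. The authors deposited 1 table per replicate, with a log2 fold of immunoprecipitate over input and a −log10 p-value per cluster, per the file headers. Starts were taken as counted from 0 and printed counting from 1. The build was taken as mm10, the mouse build among those named.

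From these tables, members were selected by position and strand with Python 3.11.15 and pandas 2.3.3. Enriched clusters had a log2 fold and −log10 p of at least 3, and reproducible ones overlapped an enriched cluster of the other replicate by at least 1 nt. Each cluster was paired with the one sharing most nt, ties going to the first by position. Genes were those of RefSeq (GRCm38.p6), and their strands came from its promoter table; where that gave none, clusters of both strands were used. Overlap and joining were tested on simulated clusters. Clusters are not replicates, so no test was run. Named clusters were the 6 pairs with the highest and 4 with the lowest lower fold, the first, last and longest, and those without overlap; named genes were all within 100 kb; comparison runs were the leading 10 per replicate, with ties. The pairs with the largest difference, the highest folds of replicate 1, and the leading runs outside genes were chosen after their values were seen. The members and lists were chosen with earlier results of these data known. Motifs were searched in promoter windows because the sequence of the block was not used here.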

Additional observations from a re-analysis of the deposited data

How the results depend on the processing

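Of 49 alternative values, 40 stayed close to the reported one, though some of the 40 could not have moved, as given below. Among the log2 values 0 changed sign, which counts and lengths cannot do. Close meant counts and covered lengths within 1.5 times of the reported value and log2 values within 0.50, the SD between the replicates' medians. The widest moves within that limit were 156 for 208 enriched clusters and 3745 for 5188 nt covered in replicate 1 at a log2 fold of at least 5, 11 for 16 runs in replicate 1 when bridging 50 nt, and 14 for 20 runs in replicate 2 when bridging 10 nt. A log2 fold threshold of 5 left 17 of 202 enriched clusters in replicate 2, covering 363 nt. It left 17 reproducible clusters in replicate 1 and 15 in replicate 2. A threshold of 4 left at least 187 enriched or reproducible clusters. Thresholds of 1 and 2 and −log10 p thresholds of 5 and 10 could not change these counts. The members and the clusters they overlap all lie above them, with lowest member log2 folds of 3.48 and 3.53 and −log10 p of 400 and 85.2. Bridging gaps of up to 100 nt joined the clusters into 7 runs in place of 16 in replicate 1 and 6 in place of 20 in replicate 2, where bridging 50 nt gave 10. Counting touching clusters as 1, added after seeing the data, gave 16 and 20 in place of 208 and 202. The mean of the replicates' median log2 folds, 4.93, was 4.57 to 5.28 with 1 replicate left out. With 2 replicates such a move is always smaller than the SD between them. The difference between replicates was 0.71 to 0.77 by other pairings, and 0.74 for the reported 0.75 with ties in overlap going to the higher fold, added after seeing the data. No paired analysis was possible because each deposited fold already sets an immunoprecipitate against its own input, and no test was run. Read depth is unknown, which leaves single folds without an interval.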

Other observations

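A −log10 p of 400 was also held by clusters of the mitochondrial genome, which carried 161 clusters in replicate 1 and 181 in replicate 2. Those at 400 were 26 and 37, with median lengths of 40 and 27 nt and median log2 folds of 2.20 and 2.02, and 2 of them in each replicate were enriched. The others, 135 and 144, had median lengths of 21 and 17 nt and median log2 folds of −0.19 and −0.31, and 0 and 5 of them were enriched. In all, 1.24% and 3.87% of the mitochondrial clusters were enriched, beside 6.31% and 4.71% of all clusters. In the chromosome 7 block the median lengths were 22 and 23 nt and the median log2 folds 5.28 and 4.57. These values are a description, and the difference was not tested.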
